A study of Arabidopsis thaliana with 12 samples.

Results

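The major light-harvesting antenna of photosystem II was examined in Arabidopsis thaliana through the 9 loci that encode its proteins, LHCB1.1 (AT1G29920), LHCB1.2 (AT1G29910), LHCB1.3 (AT1G29930), LHCB1.4 (AT2G34430), LHCB1.5 (AT2G34420), LHCB2.1 (AT2G05100), LHCB2.2 (AT2G05070), LHCB2.3 (AT3G27690) and LHCB3 (AT5G54270). They were chosen by locus identifier from the 32592 loci of the deposited tables, and all 9 were present with 1 gene model each. Their levels were compared in F1 hybrids named C24xCol (C24 as the mother) and ColxC24 (Col as the mother), and in the parental accessions C24 and Col (Columbia). Messenger RNA came from rosette leaves of soil-grown plants at an age of 3 weeks, before bolting, in a day of 16 h light and 8 h dark. The sampling times were ZT0, ZT6 and ZT15, in hours of zeitgeber time. Each of the 12 combinations of genotype and time had 1 library, so no value has a replicate error, and the number of plants behind a library is not given in the sources used here.

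LHCB1, LHCB2 and LHCB3 are nuclear-encoded proteins that bind chlorophyll a and chlorophyll b and assemble in the thylakoid membrane into the trimers called LHCII, which collect light and pass its energy to photosystem II. LHCB1 is the most abundant of them, LHCB2 is the form whose phosphorylation is best known from state transitions, in which LHCII moves between the photosystems, and LHCB3 is a minor trimer protein. Genes of this kind were among the first plant genes shown to be controlled by light through phytochrome and by the circadian clock.

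Levels are RPKM, read numbers corrected for transcript length and library depth, so different genes can be compared. Estimated depth lay between 16.6 M reads (Col at ZT0) and 26.5 M reads (Col at ZT15). The lowest level of any of the 9 loci was 21.7 RPKM, for LHCB2.3 in Col at ZT15, which corresponds to an estimated 841 reads. All 9 passed the filter on low levels, a mean of 1 RPKM or more, that left 17207 loci for testing. Leaf transcripts were abundant in every library, with RBCS1A, a small subunit of Rubisco, at 22088 to 36762 RPKM. Epidermal, guard cell and phloem markers were also present. The phloem gene SUC2 was at 100.8 to 148 RPKM in both hybrids, 88.8 to 137 RPKM in C24 and 140 to 195 RPKM in Col, highest in Col at each time. The guard cell gene FAMA (8.61 to 15.1 RPKM in both hybrids, 12.4 to 18.0 RPKM in C24 and 17.2 to 18.2 RPKM in Col) was also highest in Col at each time. RCA, the Rubisco activase of mesophyll, was lowest in Col at each time, with 12335 RPKM in C24 against 11600 RPKM in Col at ZT0, 10303 against 7644 RPKM at ZT6 and 6658 against 5638 RPKM at ZT15. RBCS1A, the epidermal gene ATML1 and the guard cell gene KAT1 kept no such order at all 3 times. Of the markers of other organs, the seed gene OLEO1 was at 0 in all 12 libraries and the floral gene AP1 in 6. The root gene PYK10 reached 9.45 RPKM in Col at ZT6. The summed flower, root and seed markers were 0.542 to 1.67 RPKM in the C24xCol, ColxC24 and C24 libraries and 2.72 to 10.2 RPKM in the Col libraries. Because whole leaves were used, fewer cells of a type and less RNA per cell cannot be told apart.

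Several of the copies are near-identical, which limits how far they can be separated with 84-base reads. In the RefSeq annotation of TAIR10.1, LHCB1.2, LHCB1.1 and LHCB1.3 are neighbours on chromosome 1, LHCB2.2 and LHCB2.1 are neighbours on chromosome 2, and so are LHCB1.5 and LHCB1.4, with 0 protein-coding genes between them. LHCB2.3 lies on chromosome 3 and LHCB3 on chromosome 5. Of all 84-base windows in the LHCB2.2 transcript of that annotation, 16.7% occur unchanged in LHCB2.1 and 47.6% occur there with at most 2 mismatches. For LHCB2.1 the shares were 12.6% and 38.2%. The LHCB1 copies shared 2.89 to 8.29% of their windows exactly with another of the 9 loci, and 30.0 to 40.7% with at most 2 mismatches. LHCB2.3 and LHCB3 shared 0% under both criteria. How reads with several matches were placed is not given in the sources used here, so the values of single LHCB1 copies and of LHCB2.1 and LHCB2.2 are uncertain. Sums over a family are less exposed to reads moving between copies, but reads dropped or counted more than once would change the sums too. Single values and sums are both given. Loss of C24 reads in mapping to a Col-based genome build, or their move between copies, was not tested. Neighbouring genes on the opposite strand overlap part of LHCB2.3, LHCB3, LHCB1.3 and LHCB1.5, but those with a value in the tables never exceeded 19.0 RPKM. RefSeq also places a non-coding RNA antisense to all of LHCB1.5, which is not analysed here, and the strandedness of the counts is not stated.

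The first question was how the antenna transcripts stood at the 3 times of day. All 9 loci rose at ZT6 relative to ZT0 and all 9 fell at ZT15 relative to ZT6, in each of the 4 genotypes. In the fit over the genotypes LHCB1.3 had the smallest changes of the 9, close to 2-fold, and LHCB2.2 and LHCB2.3 had the greatest falls, 60.4-fold and 60.6-fold. Together the 9 loci took 2.57% of the summed RPKM of all loci in C24xCol, 2.50% in ColxC24, 2.19% in C24 and 1.55% in Col at ZT0. At ZT6 they took 8.89% in C24xCol, 9.69% in ColxC24, 9.20% in C24 and 6.22% in Col. At ZT15 the shares were 1.79% in C24xCol, 1.65% in ColxC24, 1.55% in C24 and 1.16% in Col. Col had the lowest share at each of the 3 times.

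Among the LHCB1 copies, LHCB1.3 (also known as CAB1) was the highest. At ZT0 LHCB1.3 was at 12540 RPKM in C24xCol, 10882 RPKM in ColxC24, 9471 RPKM in C24 and 7770 RPKM in Col. At ZT6 it was at 20783, 23580, 23584 and 14158 RPKM in C24xCol, ColxC24, C24 and Col. At ZT15 it was at 12168, 11138, 10938 and 7929 RPKM in C24xCol, ColxC24, C24 and Col. Col was the lowest of the 4 genotypes at each time, and LHCB1.3 ranked 6 among all loci at ZT0 and 5 at ZT15 in every genotype. Over the genotypes, LHCB1.3 rose at ZT6 relative to ZT0 by 1.01 on the log2 scale (SE 0.10, limma adjusted p = 1.22e-04) and fell at ZT15 relative to ZT6 by 0.95 (SE 0.10, limma adjusted p = 2.81e-04). Both calls were lost when no filter on low levels was used (adjusted p = 0.0697 and 0.107, highest of the 20 alternatives). ZT15 and ZT0 differed by 0.06 for this copy (95% interval -0.18 to 0.29, limma adjusted p = 0.69), but with quantile normalization it was called higher at ZT15 (0.29, adjusted p = 0.0251, lowest of the 20 alternatives). Quantile normalization gives equal ranks equal values. That call therefore compares rank 6 at ZT0 with rank 5 at ZT15, without spread between genotypes at either time.

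LHCB1.1 (CAB2), the copy whose promoter is widely used in clock reporters, had a much deeper daily minimum. At ZT0 LHCB1.1 was at 3458 RPKM in C24xCol, 3763 RPKM in ColxC24, 3230 RPKM in C24 and 1460 RPKM in Col. At ZT6 it was at 11885, 11631, 11388 and 8643 RPKM in C24xCol, ColxC24, C24 and Col. At ZT15 it was at 407, 423, 178 and 151 RPKM in C24xCol, ColxC24, C24 and Col. Both hybrids lay above both parents at each time, by a wide gap at ZT15 and by small ones at ZT0 and ZT6. LHCB1.1 fell by 5.37 at ZT15 relative to ZT6 on the log2 scale (SE 0.22, limma adjusted p = 5.37e-07), or 27.5-fold to 63.9-fold depending on the genotype.

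LHCB1.2 (CAB3) was the copy with the steepest rise to ZT6. At ZT0 LHCB1.2 was at 980 RPKM in C24xCol, 993 RPKM in ColxC24, 1288 RPKM in C24 and 362 RPKM in Col. At ZT6 it was at 9779, 12742, 14904 and 4751 RPKM in C24xCol, ColxC24, C24 and Col. At ZT15 it was at 1347, 1353, 1382 and 537 RPKM in C24xCol, ColxC24, C24 and Col. C24 was the highest and Col the lowest genotype at each time, with both hybrids between them. The rise at ZT6 relative to ZT0 was 3.56 on the log2 scale (SE 0.11, limma adjusted p = 1.57e-07). LHCB1.2 was called higher at ZT15 than at ZT0, by 0.39 (SE 0.11, limma adjusted p = 0.0201). LHCB1.3 was called higher with quantile normalization alone, which sets values by rank. The LHCB1.2 call was lost without the C24xCol ZT15, ColxC24 ZT0, Col ZT0 or Col ZT15 library (adjusted p 0.067 to 0.0773), with no filter, and with quantile normalization (adjusted p = 0.109, highest of the alternatives).

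LHCB1.4 and LHCB1.5, the pair on chromosome 2, differed from each other in the depth of the minimum. LHCB1.4 was at 690, 1039, 666 and 471 RPKM at ZT0 in C24xCol, ColxC24, C24 and Col, and at 3792, 6993, 4531 and 2395 RPKM at ZT6. At ZT15 LHCB1.4 was at 149, 108, 75.3 and 46.8 RPKM in C24xCol, ColxC24, C24 and Col. Col was the lowest genotype for LHCB1.4 at each time, and the hybrids were farther apart from each other for this copy than for any other of the 9 loci at ZT6. LHCB1.5 was at 1318, 1471, 1125 and 1138 RPKM at ZT0 in C24xCol, ColxC24, C24 and Col, and at 12674, 12360, 10104 and 7816 RPKM at ZT6. At ZT15 LHCB1.5 was at 700, 593, 729 and 514 RPKM in C24xCol, ColxC24, C24 and Col. For LHCB1.5 the highest genotype was 1.31-fold the lowest at ZT0, 1.62-fold at ZT6 and 1.42-fold at ZT15. The parents did not keep the same order at the 3 times for this copy. LHCB1.4 at ZT15 relative to ZT6 fell by 5.55 (SE 0.21, limma adjusted p = 3.69e-07) and LHCB1.5 fell by 4.07 (SE 0.13, limma adjusted p = 1.24e-07).

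The LHCB2 copies had lower peaks than LHCB1.1, LHCB1.2, LHCB1.3 and LHCB1.5 in every genotype and fell very low at ZT15. LHCB2.1 was at 1081, 947, 588 and 761 RPKM at ZT0 in C24xCol, ColxC24, C24 and Col, and at 3551, 3558, 2192 and 3548 RPKM at ZT6. At ZT15 LHCB2.1 was at 100.2, 81.2, 66.5 and 82.2 RPKM in C24xCol, ColxC24, C24 and Col. LHCB2.1 was the only locus of the 9 for which C24 was the lowest genotype at each time. LHCB2.2 was at 631, 590, 611 and 149 RPKM at ZT0 in C24xCol, ColxC24, C24 and Col, and at 4043, 4268, 4911 and 2715 RPKM at ZT6. At ZT15 LHCB2.2 was at 75.0, 73.3, 49.6 and 59.7 RPKM in C24xCol, ColxC24, C24 and Col. Col stood far below the other genotypes for LHCB2.2 at ZT0, but C24 was the lowest at ZT15. LHCB2.3 was at 265, 340, 286 and 125 RPKM at ZT0 in C24xCol, ColxC24, C24 and Col, and at 2500, 3065, 2199 and 1681 RPKM at ZT6. At ZT15 LHCB2.3 was at 60.1, 50.8, 28.5 and 21.7 RPKM in C24xCol, ColxC24, C24 and Col. Col was the lowest genotype for LHCB2.3 at each time, and this copy shares no 84-base window with the others. However, 37.0% of its windows also lie in a neighbouring gene on the opposite strand, which reached at most 7.76 RPKM. LHCB2.1 at ZT15 relative to ZT6 fell by 5.25 (SE 0.11), LHCB2.2 fell by 5.92 (SE 0.31) and LHCB2.3 fell by 5.92 (SE 0.18) on the log2 scale.

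LHCB3, the single-copy member, was intermediate in its daily range. At ZT0 LHCB3 was at 993 RPKM in C24xCol, 1147 RPKM in ColxC24, 1084 RPKM in C24 and 493 RPKM in Col. At ZT6 it was at 6995, 7686, 6984 and 6188 RPKM in C24xCol, ColxC24, C24 and Col. At ZT15 it was at 582, 638, 346 and 485 RPKM in C24xCol, ColxC24, C24 and Col. Col was the lowest genotype at ZT0 and ZT6 and C24 at ZT15. LHCB3 rose by 2.97 at ZT6 relative to ZT0 (SE 0.22, limma adjusted p = 1.96e-05) and fell by 3.79 at ZT15 relative to ZT6 (SE 0.22, limma adjusted p = 4.21e-06).

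**Figure D1:**
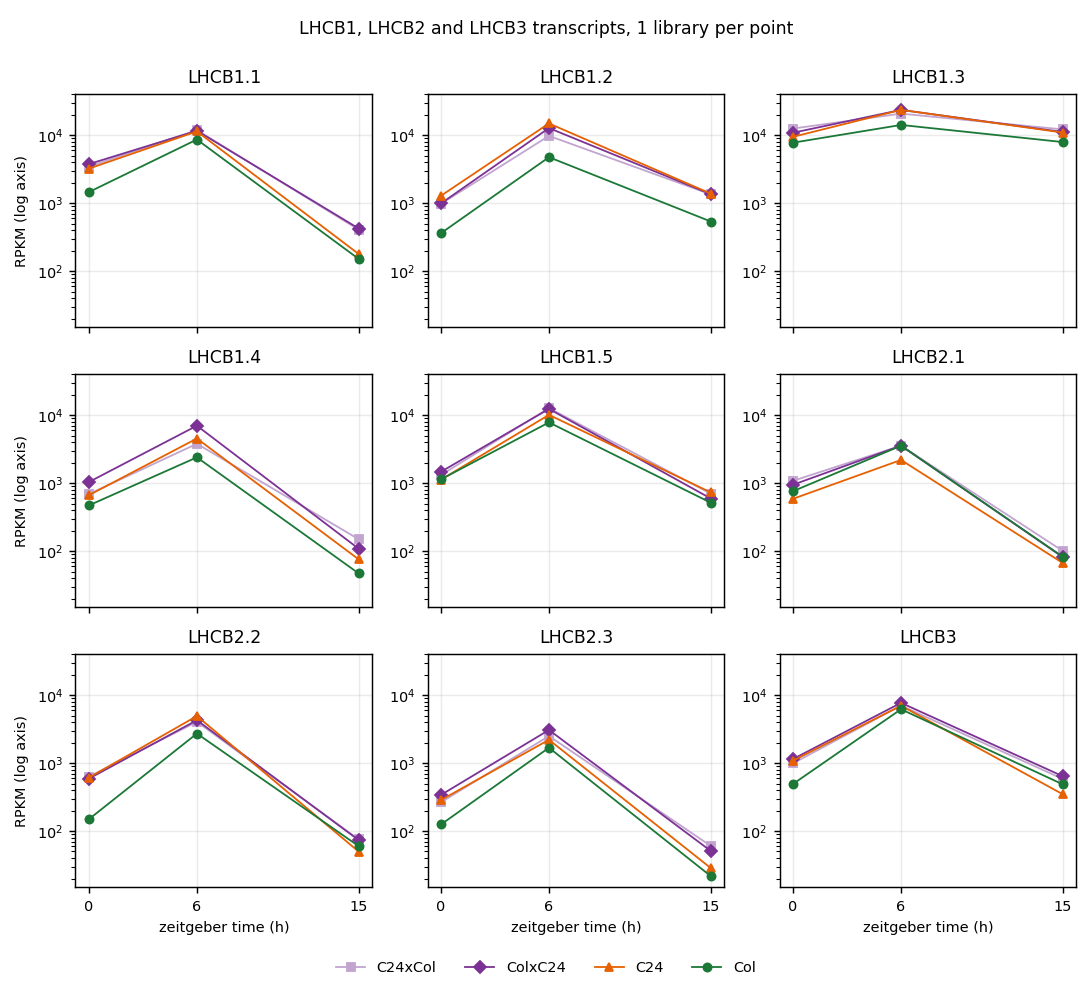
Level of each of the 9 loci in RPKM on a log axis against zeitgeber time in hours, with 1 library per point and a line for each genotype. All 9 peak at ZT6; LHCB1.3 stays at 7770 RPKM or more throughout, while LHCB2.2 and LHCB2.3 drop to 21.7 to 75.0 RPKM at ZT15, and the Col line is the lowest at all 3 times for LHCB1.1, LHCB1.2, LHCB1.3, LHCB1.4 and LHCB2.3.

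The counts over all loci place these daily changes. The test was limma on log2(RPKM + 1) with Benjamini-Hochberg adjustment over the 17207 loci and a threshold of 0.05. It had no replicates to draw on, and every p-value rests on the residual of an additive fit of genotype and time. At ZT6 relative to ZT0 9 of 9 antenna loci were called higher, against 12.5% of all loci tested, and 0 of 9 lower, against 26.8%. At ZT15 relative to ZT6 9 of 9 were called lower, against 8.48% of all loci, and 0 of 9 higher, against 17.0%. At ZT15 relative to ZT0 7 of 9 were called lower, against 22.3% of all loci, and 1 of 9, LHCB1.2, was called higher, against 20.3%. The median of the 9 log2 differences was 2.97 at ZT6 relative to ZT0, against a median of -0.14 over all loci tested. It was -5.25 at ZT15 relative to ZT6, against 0.12 over all loci, and -2.65 at ZT15 relative to ZT0, against -0.0025. Summed over its copies, LHCB1 was 1.25-fold lower at ZT15 than at ZT0 (log2 difference -0.33, SE 0.09, limma adjusted p = 0.0152), a call that was lost without the C24xCol ZT0 library (adjusted p = 0.0616), with median-of-ratios scaling (0.103) and with no filter (0.667, highest of the 20 alternatives). With quantile normalization this difference was -0.59 (0.017). The LHCB2 sum was 8.37-fold lower (log2 difference -3.06, SE 0.13, limma adjusted p = 6.54e-07).

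The unequal daily ranges changed the make-up of each family. LHCB1.3 supplied 60.0 to 69.4% of the LHCB1 sum at ZT0, 35.0 to 37.5% at ZT6 and 81.8 to 86.4% at ZT15, over the 4 genotypes. LHCB1.5 supplied 6.94 to 10.2% at ZT0, 15.7 to 21.5% at ZT6 and 4.36 to 5.60% at ZT15. LHCB1.1 supplied 13.0 to 20.7% at ZT0 and 17.3 to 22.9% at ZT6 but only 1.34 to 3.11% at ZT15. The LHCB1.4 share was 3.63 to 5.73% at ZT0, 6.34 to 10.4% at ZT6 and 0.51 to 1.01% at ZT15. For LHCB1.3, LHCB1.5, LHCB1.1 and LHCB1.4 the ranges over genotypes at ZT15 did not overlap those at the other times. LHCB1.2 supplied 3.24 to 8.16% at ZT0, 12.6 to 23.1% at ZT6 and 5.86 to 10.4% at ZT15, so its ranges at ZT0 and ZT15 overlapped. The make-up of the LHCB2 sum also varied between genotypes. LHCB2.1 supplied 54.7% of it in C24xCol, 50.4% in ColxC24, 39.6% in C24 and 73.5% in Col at ZT0. At ZT6 it supplied 35.2% in C24xCol, 32.7% in ColxC24, 23.6% in C24 and 44.7% in Col. Both hybrids lay between the parents at these 2 times. At ZT15 the LHCB2.1 share was 42.6% in C24xCol, 39.6% in ColxC24, 46.0% in C24 and 50.3% in Col, so both hybrids lay below both parents. The ratio of LHCB2.2 to LHCB2.1 was 0.583 in C24xCol, 0.623 in ColxC24, 1.04 in C24 and 0.196 in Col at ZT0. At ZT6 this ratio was 1.14 in C24xCol, 1.2 in ColxC24, 2.24 in C24 and 0.765 in Col. At ZT15 it was close in C24 and Col (0.746 and 0.726). Since these 2 copies share 12.6 to 16.7% of their 84-base windows exactly, these shares depend on how shared reads were placed.

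**Figure D2:**
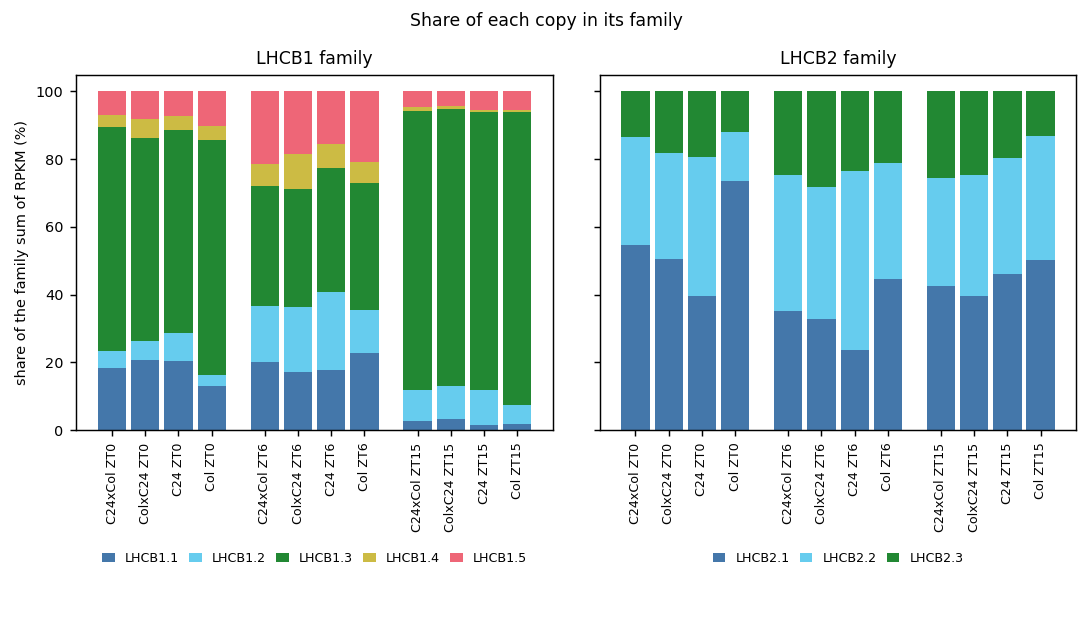
Share of each copy in the summed RPKM of its family, in percent, for each genotype and time (1 library per bar; left, LHCB1; right, LHCB2). LHCB1.3 fills 81.8 to 86.4% of the LHCB1 bars at ZT15 but 35.0 to 37.5% at ZT6, and the LHCB2.1 share is highest in Col at each of the 3 times.

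The accessions were compared next. C24 had more LHCB1 transcript than Col, less LHCB2.1 and LHCB3 was not called. The LHCB1 sum in C24 was 15780, 64512 and 13302 RPKM at ZT0, ZT6 and ZT15, against 11201, 37763 and 9178 RPKM in Col. That is 1.52-fold higher in C24 (log2 difference 0.60, SE 0.10, limma adjusted p = 0.00499, higher at 3 of 3 times). LHCB1.2 carried the greatest difference, 3.06-fold higher in C24 (log2 difference 1.61, SE 0.13, limma adjusted p = 4.12e-05), and stayed called in all 23 alternatives (adjusted p up to 0.00662). LHCB1.3 was 1.41-fold higher in C24 (log2 difference 0.50, SE 0.12, limma adjusted p = 0.026). LHCB2.1 was 1.37-fold lower in C24 (log2 difference -0.46, SE 0.13, limma adjusted p = 0.049). In all, 2 of 9 antenna loci were called higher in C24, against 4.46% of all loci tested, and 1 of 9 was called lower, against 9.12%. The other 6 differed by 0.28 to 0.87 on the log2 scale, all positive, with limma adjusted p of 0.0721 to 0.491. The 95% intervals were wide for LHCB1.1 (0.02 to 1.17), LHCB2.2 (0.08 to 1.67) and LHCB3 (-0.28 to 0.83). The LHCB2 sum in C24 was 1485, 9302 and 145 RPKM at ZT0, ZT6 and ZT15, against 1035, 7944 and 164 RPKM in Col, and differed by 0.19 (95% interval -0.15 to 0.53, limma adjusted p = 0.428). C24 was above Col for 7, 8 and 6 of 9 loci at ZT0, ZT6 and ZT15, against 48.4%, 32.7% and 36.1% of all loci.

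Apart from LHCB1.2, the calls in this comparison depended on the setting. LHCB1.3 was no longer called without the C24 ZT6, C24 ZT15, Col ZT0, Col ZT6 or Col ZT15 library (adjusted p 0.0576 to 0.114), and LHCB2.1 lost its call without any 1 of 11 of the 12 libraries (adjusted p up to 0.163). Median-of-ratios scaling moved the median of all loci tested from -0.12 to -0.01 in this comparison, and LHCB1.3 and LHCB2.1 were then at 0.62 and -0.33 (adjusted p = 0.0571 and 0.208; over all 23 alternatives the adjusted p was 0.015 to 0.576 for LHCB1.3 and 0.0467 to 0.208 for LHCB2.1). With quantile normalization LHCB1.3 was at 0.10 (adjusted p = 0.576). C24 and Col differed in its rank only at ZT6 (2 against 3), and equal ranks get equal values. The LHCB1 sum kept its call without each library in turn (adjusted p up to 0.0406) but lost it with quantile normalization (0.31, adjusted p = 0.327), with no filter (0.512) and without each time point (0.0611 to 0.0713). The summed flower, root and seed markers, SUC2 and FAMA were higher and RCA was lower in Col than in C24 at each time. The part of these markers, given above, in the differences was not tested.

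Both hybrids were above Col at each time for all 9 loci except LHCB2.1, which in ColxC24 at ZT15 was just below Col. LHCB1.1 was 2.1-fold, LHCB1.2 2.52-fold, LHCB1.3 1.51-fold, LHCB1.4 2.18-fold and LHCB2.3 2.14-fold higher in the hybrids than in Col, all of them called. The log2 differences were 1.07 for LHCB1.1 (SE 0.22), 1.33 for LHCB1.2 (SE 0.11), 0.60 for LHCB1.3 (SE 0.10), 1.12 for LHCB1.4 (SE 0.21) and 1.1 for LHCB2.3 (SE 0.18). Their limma adjusted p lay between 2.35e-04 (LHCB1.2) and 0.0239 (LHCB1.1). Thus 5 of 9 loci were called higher, against 1.65% of all loci tested, and 0 of 9 lower, against 5.64%, where limma gave 8 of 9 an unadjusted p under 0.05, all of them positive, against 4382 of 17207 loci in either direction. The remaining 4 were at 0.43 for LHCB1.5 (adjusted p = 0.0727), 0.18 for LHCB2.1 (0.356), 0.98 for LHCB2.2 (0.0832) and 0.56 for LHCB3 (0.14), all by limma. The median of the 9 differences was 0.98, against -0.12 over all loci tested.

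Summed over copies, LHCB1 was at 18987, 58914 and 14770 RPKM in C24xCol and at 18148, 67306 and 13615 RPKM in ColxC24 at ZT0, ZT6 and ZT15, above the 11201, 37763 and 9178 RPKM of Col at each time. The hybrids' LHCB1 sum was 1.62-fold that of Col (log2 difference 0.70, SE 0.09, limma adjusted p = 0.00263). The LHCB2 sum was at 1977, 10093 and 235 RPKM in C24xCol and at 1877, 10892 and 205 RPKM in ColxC24, against 1035, 7944 and 164 RPKM in Col. It was 1.49-fold higher in the hybrids (log2 difference 0.57, SE 0.13, limma adjusted p = 0.0321). LHCB1.2 stayed called in all 23 alternatives (adjusted p up to 0.0271). The LHCB1.1 call was lost without the C24xCol ZT0, ColxC24 ZT0, ColxC24 ZT15, Col ZT0 or Col ZT15 library (adjusted p 0.0535 to 0.116). LHCB1.3 and LHCB1.4 lost theirs without Col ZT6 or Col ZT15 (0.0592 to 0.0853), LHCB2.3 without Col ZT0 or Col ZT15 (0.059 and 0.0599), and the LHCB2 sum without any 1 of 8 libraries (up to 0.118). The LHCB1 sum was 0.24 with quantile normalization (adjusted p = 0.452) and also lost its call with no filter (0.434) and without ZT0 (0.0824) or ZT15 (0.0752); over its 23 alternatives the adjusted p was 0.00133 to 0.452. With quantile normalization LHCB1.1 (adjusted p = 0.195) and LHCB1.3 (0.10, adjusted p = 0.581) were not called either. Quantile normalization gives equal ranks equal values, and LHCB1.3 had the same rank in all 4 genotypes at ZT0 and at ZT15. At ZT6 LHCB1.3 ranked 3 in Col and 2 in C24 and both hybrids. With this method its difference from Col follows from these ranks. LHCB1.1 did not have the same rank in all 4 genotypes at any time. The bearing of ranks on the other lost calls was not tested. SUC2, FAMA and the summed flower, root and seed markers, all high in Col, and RCA, low in Col, move with these differences too. RBCS1A, ATML1 and KAT1 did not do so at every time. In C24xCol RBCS1A was below Col at ZT6 (22088 against 24823 RPKM) and KAT1 above Col at ZT15 (11.4 against 10.3 RPKM). Within the summed markers the root gene PYK10 was highest in Col at each time. The floral gene AG was instead higher in both hybrids than in Col at ZT0 and ZT15. The part of these markers was not tested.

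Against C24 the hybrids differed in 1 locus. LHCB2.1 was 1.56-fold higher in the hybrids than in C24 (log2 difference 0.64, SE 0.11, limma adjusted p = 0.0192), and both hybrids were above C24 at each time. This was 1 of 9 loci called higher, against 1.56% of all loci tested, and 0 of 9 were called lower, against 0.575%. Limma gave 3 of 9 an unadjusted p under 0.05, LHCB2.1 and LHCB2.3 higher and LHCB1.2 lower, against 2255 of 17207 loci in either direction. LHCB1.2 was at -0.28 (95% interval -0.53 to -0.02, limma adjusted p = 0.327). The LHCB2.1 call was lost without the C24xCol ZT0, C24xCol ZT15, ColxC24 ZT0, ColxC24 ZT6, C24 ZT0 or C24 ZT6 library (adjusted p 0.0561 to 0.105). The hybrids' LHCB1 sum differed from that of C24 by 0.10 (95% interval -0.10 to 0.30, limma adjusted p = 0.709) and the LHCB2 sum by 0.38 (95% interval 0.09 to 0.68, limma adjusted p = 0.233). The comparisons of the hybrids with each parent share the hybrid libraries, so their values are not independent.

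**Figure D3:**
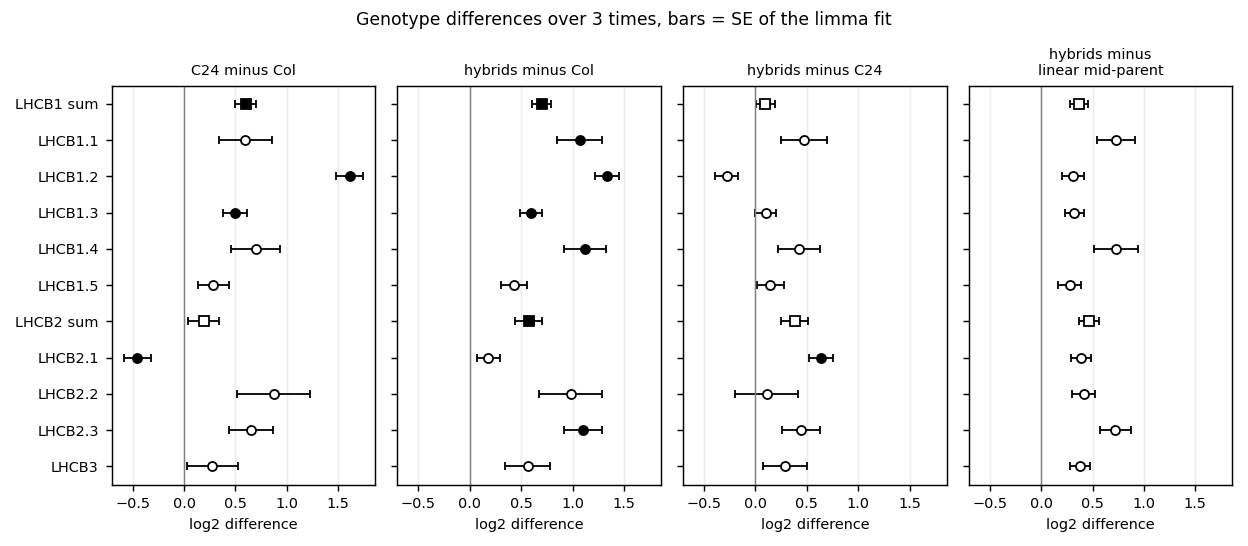
Log2 differences over the 3 times for the 9 loci and the sums of LHCB1 and LHCB2 in 4 comparisons, with bars for the standard error of the limma fit. Circles are single loci, squares are family sums, and filled symbols had an adjusted p under 0.05: LHCB1.2, LHCB1.3, LHCB2.1 and the LHCB1 sum for C24 minus Col, 5 loci and both sums for the hybrids minus Col, LHCB2.1 for the hybrids minus C24, and none against the mid-parent.

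The next question, raised by heterosis, was how the hybrids stood to the mean of their parents, the mid-parent. All 9 loci had a positive difference from the mid-parent, but none was called. The log2 differences were 0.73 for LHCB1.1 (SE 0.18), 0.73 for LHCB1.4 (SE 0.22) and 0.72 for LHCB2.3 (SE 0.15), and 0.28 to 0.41 for the other 6. With limma 0 of 9 had an adjusted p under 0.05, against 0.0% of all loci called higher and 0.0465% called lower. The unadjusted p was under 0.05 for 9 of 9, all higher, and ranged from 0.00189 (LHCB2.3) to 0.0389 (LHCB1.5). Among all loci tested, 1.0% had an unadjusted p under 0.05 and were higher in the hybrids, and 11.8% were lower. The limma adjusted p of the 9 loci was 0.24 to 0.364. The LHCB1 sum was 1.29-fold (log2 difference 0.37, SE 0.09, 95% interval 0.16 to 0.57) and the LHCB2 sum 1.38-fold (0.47, SE 0.10, 95% interval 0.24 to 0.69) the mid-parent, both with a limma adjusted p of 0.24. With quantile normalization the LHCB1 sum was at 0.059 (adjusted p = 0.935) and LHCB1.3, whose genotypes then differ only by rank at ZT6, at 0.047 (0.927). LHCB1.1 was at 0.43 without the C24 ZT15 or Col ZT15 library. When the mid-parent was taken as the mean of log2 values, LHCB1.2 was called (0.53, adjusted p = 0.0465; 0.0465 to 0.89 over its 24 alternatives). The median of the 9 differences was 0.39, against -0.09 over all loci tested.

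No test was made at single times, and the positions of the hybrids there are descriptions. Both hybrids lay above the mid-parent for 9, 8 and 8 of the 9 loci at ZT0, ZT6 and ZT15, against 15.6%, 14.3% and 28.4% of all loci tested. The exceptions were LHCB1.2 in C24xCol at ZT6, at 0.995 of the mid-parent, and LHCB1.5 in ColxC24 at ZT15, at 0.954. For 7 of the 9 loci both hybrids were above the mid-parent at each of the 3 times, which held for 1.74% of all loci. Both hybrids lay above both parents for 5, 5 and 6 of the 9 loci, against 6.38%, 5.7% and 11.3% of all loci. Both lay below both parents for 0 of 9 at each time, against 24.5%, 19.0% and 12.9%. LHCB1.1 was the only locus of the 9 with both hybrids above both parents at each time, which held for 0.157% of all loci. The widest gaps between the lower hybrid and the higher parent were at ZT15, 2.28-fold for LHCB1.1, 1.78-fold for LHCB2.3 and 1.43-fold for LHCB1.4. LHCB1.1 was then 2.47-fold and 2.57-fold the mid-parent in C24xCol and ColxC24, LHCB2.3 was 2.40-fold and 2.03-fold, and LHCB1.4 was 2.44-fold and 1.77-fold. In ColxC24 LHCB1.4 was farther above the mid-parent at ZT0 (1.83-fold) and ZT6 (2.02-fold) than at ZT15. At ZT6, when the transcripts peaked, the lower hybrid was between 0.656-fold (LHCB1.2) and 1.22-fold (LHCB1.5) the higher parent.

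**Figure D4:**
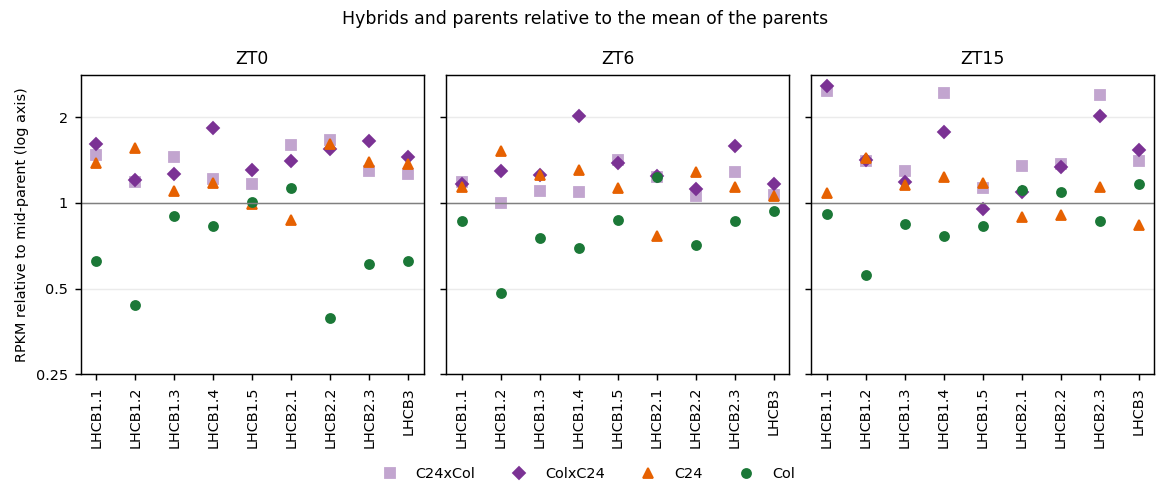
RPKM of both hybrids and both parents divided by the linear mid-parent of the same time, on a log axis, for each of the 9 loci at ZT0, ZT6 and ZT15 (1 library per point; the line at 1 is the mid-parent). All but 2 of the hybrid points lie above 1, the highest being LHCB1.1 in ColxC24 at ZT15 with 2.57, and the orange C24 points lie above the green Col points except for LHCB2.1 at each time, LHCB1.5 at ZT0, and LHCB2.2 and LHCB3 at ZT15.

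The reciprocal hybrids carry the same nuclear genomes and differ in which accession was the mother. With limma 0 of 9 loci were called between C24xCol and ColxC24, and 0 of 9 had an unadjusted p under 0.05. Over all loci tested, 0.0% were called in each direction, and at an unadjusted p under 0.05 3.5% were higher in C24xCol and 0.982% lower. The log2 differences lay between -0.34 for LHCB1.4 (95% interval -0.87 to 0.20) and 0.16 for LHCB2.1 (95% interval -0.13 to 0.46). The LHCB1 sum differed by -0.0031 (95% interval -0.23 to 0.23) and the LHCB2 sum by 0.05 (95% interval -0.28 to 0.39). LHCB1.4 was at 0.664-fold and 0.542-fold in C24xCol relative to ColxC24 at ZT0 and ZT6 and at 1.38-fold at ZT15. This locus thus had opposite differences at different times, without replicates to test them.

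The genes that work with LHCII were followed in 6 lists. The minor antenna proteins LHCB4 to LHCB7 connect the LHCII trimers to the photosystem II core, except LHCB7, whose place is less well known. In C24 relative to Col 3 of 6 were called higher and 0 lower, against 4.46% and 9.12% of all loci tested. These were LHCB4.3 at 1.42 (SE 0.16), LHCB6 at 0.77 (SE 0.14) and LHCB4.1 at 0.53 (SE 0.14) on the log2 scale. The same 3 were called higher in the hybrids than in Col, by 1.23, 0.63 and 0.51. Over all loci 1.65% were called higher and 5.64% lower in that comparison. LHCB6 was at 1516, 4734 and 1227 RPKM in C24xCol, 1644, 5773 and 1128 RPKM in ColxC24, 1568, 5586 and 1474 RPKM in C24, and 894, 3093 and 948 RPKM in Col at ZT0, ZT6 and ZT15. Col was the lowest genotype for LHCB6 at each time. Of the photosystem I antenna genes LHCA1 to LHCA6, 0 of 6 were called between the parents. By limma 2 of the 6 had an unadjusted p under 0.05 there, against 5130 of 17207 loci in either direction. In the hybrids relative to Col 1 of 6, LHCA2, was called higher (0.47, SE 0.11). Against the mid-parent, 0 of the 6 minor antenna and 0 of the 6 LHCA genes were called. By limma 3 of each had an unadjusted p under 0.05, all of them higher in the hybrids. At that unadjusted p 1.0% of all loci were higher and 11.8% lower.

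Most LHCA and minor antenna genes moved over the day in the direction of LHCB1 to LHCB3. At ZT6 relative to ZT0 4 of 6 minor antenna and 4 of 6 LHCA genes rose, and 1 of each fell, LHCB4.3 and LHCA5, which are named after their values were seen; over all loci 12.5% rose and 26.8% fell. The largest of these rises was 2.43 for LHCA1, followed by 2.27 for LHCA4. At ZT15 relative to ZT6 5 of 6 minor antenna and 4 of 6 LHCA genes fell, with LHCA4 at -3.48 and LHCB4.2 at -3.38. Over all loci 8.48% fell and 17.0% rose at this step. LHCB4.3 rose by 1.01 there, and LHCA5 (0.10) and LHCA6 (0.22) were not called. CAO, the enzyme that makes the chlorophyll b that LHCII binds, was at 176 to 201 RPKM in C24xCol at ZT0 and ZT6 and at 25.3 RPKM at ZT15, and fell by 2.94 at ZT15 relative to ZT6 over the genotypes (SE 0.15, limma adjusted p = 2.35e-06). HCAR and NYC1, which act in the conversion of chlorophyll b back to chlorophyll a, rose by 1.86 and 1.82 at the same step, while NOL, which acts with NYC1, was not called (0.19, limma adjusted p = 0.325). Of the 5 genes for targeting LHC proteins to the thylakoid and inserting them, only ALB3 was called at that step (-0.30, SE 0.10, limma adjusted p = 0.0454).

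Among 10 regulators of antenna genes, 1 rose and 5 fell at ZT6 relative to ZT0, against 12.5% and 26.8% of all loci. CCA1, the MYB clock factor first described as binding an LHCB1 promoter, fell by 2.49 (SE 0.17) and its close relative LHY fell by 5.56 (SE 0.20), with limma adjusted p of 1.46e-05 and 2.75e-07. At ZT15 relative to ZT6, 2 rose and 4 fell, against 17.0% and 8.48% of all loci. One of the 4, GLK2, an activator of photosynthesis genes, fell by 1.81 (SE 0.11). Between the parents, GUN1, a plastid protein of retrograde signalling, was higher in C24 by 0.59 (SE 0.12), and PIF3, a phytochrome-interacting repressor, was lower by 0.69 (SE 0.18). PIF3 was also lower in the hybrids than in Col, at -0.80 (SE 0.16), as was GNC at -0.51 (SE 0.12). PIF3 levels were low, between 0.858 and 6.15 RPKM. Of the 5 targeting genes 1, cpSRP43, was higher in C24 (0.57, SE 0.16) and 0 were lower, and of the 4 genes of chlorophyll b synthesis and breakdown 0 were higher and 1, NOL, was lower (-0.56, SE 0.15). Of the 6 genes for state transitions and quenching, 0 were higher in C24 and 1, ELIP1, was lower (-2.16, SE 0.51). Over all loci 4.46% were higher and 9.12% lower in C24. STN7, the kinase that phosphorylates LHCII, fell by 0.77 at ZT15 relative to ZT6.

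The 9 loci moved alike over the libraries. Pearson's r of log2(RPKM + 1) over the 12 libraries was between 0.6468 (LHCB1.2 with LHCB2.1) and 0.99 (LHCB1.4 with LHCB2.3) for their 36 pairs. The loci outside the 9 with the highest r with their mean centred pattern, of 12200 candidates whose mean reached 5 RPKM, were LHCA4 (0.9903), AT5G57345 (0.976), LHCA1 (0.9743), LHCB5 (0.9722), AT3G23080 (0.9699) and PSBW (0.9651). LHCA4 and LHCA1 are antenna proteins of photosystem I, LHCB5 is a minor antenna protein of photosystem II, and PSBW is a small photosystem II subunit. LHCA4 was at 1438, 6485 and 595 RPKM in C24xCol, 1586, 6924 and 632 RPKM in ColxC24, 1568, 6606 and 437 RPKM in C24, and 782, 5176 and 593 RPKM in Col at ZT0, ZT6 and ZT15. As for LHCB3, Col was the lowest at ZT0 and ZT6 and C24 at ZT15. These correlations are descriptions over libraries that share their depth and scaling, and the 3 times dominate them.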

How the data were processed

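The authors deposited RPKM per gene model for each library, per the file headers, from Illumina reads of 84 bases and the genome build TAIR9, per the labels and the submitters' processing notes. For the aligner, the strandedness of the kit and the placing of multiply matching reads, a description was not given in the sources used here. Col and C24 differ in sequence, and mapping to a Col build may affect C24 and hybrid values. Gene models (38710) were summed per locus (32592), and names came from RefSeq TAIR10.1, which named 31786 of them. RefSeq TAIR10.1 also gave the neighbours, the shared windows and the transcript lengths behind the estimated depth and read numbers.

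RPKM are not counts, so log2(RPKM + 1) was tested at the 17207 loci whose mean reached 1 RPKM. The two-sided test was limma's moderated one (version 3.58.1, R 4.3.3, trended prior variance), with p-values adjusted by Benjamini-Hochberg over these loci. Parents, hybrids and times were compared in 1 additive model of the 12 libraries (genotype plus time) with 6 residual degrees of freedom. Hybrids were set against the linear mid-parent over 9 columns with 4 residual degrees of freedom. Fold changes on the log2(RPKM + 1) scale understate those of low genes. Family sums replaced their copies in a second fit. Depth was estimated from the steps of low values; 36.7 to 41.3% of the values under 3.5 reads were whole to within 1%, so no count test was run. The alternatives were 2 scalings, 2 pseudocounts, 2 filters, no trend, the highest gene model, a log2 mid-parent, and leaving out each library or time.

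The 9 loci, the lists and the comparisons were chosen with earlier results of these data known. The text names all 9 loci, up to 4 called members of a list per comparison, and the 6 loci most like the mean pattern.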

Additional observations from a re-analysis of the deposited data

Results flagged for a closer look

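For LHCB2.2, LHCB3 and LHCB1.5 the difference between C24 and Col had opposite directions at different times. In each case the difference between times was not tested, because each combination had 1 library. The share of all loci with such a change was not computed. LHCB2.2 in C24 was 4.09-fold the level of Col at ZT0, 1.81-fold at ZT6 and 0.831-fold at ZT15. LHCB3 in C24 was 2.2-fold the level of Col at ZT0, 1.13-fold at ZT6 and 0.714-fold at ZT15. LHCB1.5 in C24 was close to Col at ZT0, at 0.989-fold, and above Col at 1.29-fold at ZT6 and 1.42-fold at ZT15. LHCB3 shares no 84-base window with the other loci, whereas LHCB2.2 shares 16.7% of its windows exactly with LHCB2.1. Col at ZT0 was also the shallowest library, with an estimated 16.6 M reads.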

How the results depend on the processing

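No paired analysis was possible because no combination had more than 1 library and the labels give no replicate numbers. Outside the fits that left out 1 library, 880 single values were recomputed; 807 kept their direction and side of the threshold, 53 calls were lost, 3 were gained and 17 values changed sign, none of them called. The number of loci called between C24 and Col was 3, and 1 with quantile normalization, with no filter and without ZT0, ZT6 or ZT15. Leaving out 1 library gave 1 to 4. For the hybrids against Col it was 5, and 3 with quantile normalization, with no filter and without ZT6, but 1 without ZT0 or ZT15; leaving out 1 library gave 1 to 6. Against C24 it was 1, and 0 with quantile normalization and without ZT0, ZT6 or ZT15; leaving out 1 library gave 0 to 1. Against the mid-parent it was 0, and 1 with the log2 mid-parent. Fits without a time have fewer libraries; otherwise the cause was not tested. Where a parent library was left out, the mid-parent of that time was dropped.

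Over all loci, 767 were higher and 1570 lower in C24 than in Col, against 1077 higher and 1051 lower under median-of-ratios scaling, or 1161 higher and 968 lower under quantile normalization. For the hybrids against Col the counts were 284 and 970, 406 and 439, and 412 and 373 in the same order, and for ZT6 against ZT0 2156 and 4612, against 3255 and 3421 with median-of-ratios scaling.

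Values that changed sign lay between -0.23 and 0.14 after the change. In the main fit not all of them were close to 0. There C24 minus Col was 0.28 for LHCB3 and 0.29 for LHCB1.5, and the hybrids minus C24 were 0.29 for LHCB3. With median-of-ratios scaling, C24xCol minus ColxC24 was -0.035 for the LHCB2 sum, -0.039 for LHCB1.3, -0.050 for LHCB1.5 and -0.072 for LHCB2.2. With quantile normalization C24 minus Col was -0.086 for the LHCB2 sum and -0.021 for LHCB1.5, the hybrids minus C24 were -0.071 for the LHCB1 sum, and C24xCol minus ColxC24 was 0.14 for the LHCB1 sum and 0.12 for LHCB1.1. Without ZT0, C24 minus Col was -0.15 for LHCB3, the hybrids minus C24 were -0.00075 for LHCB1.3, and C24xCol minus ColxC24 was -0.027 for LHCB1.3 and -0.022 for LHCB2.2. Without ZT6, it was 0.091 for the LHCB1 sum. Without ZT15, it was -0.017 for the LHCB2 sum and -0.061 for LHCB1.5, and the hybrids minus C24 were -0.12 for LHCB2.2. Leaving out 1 library gave -0.051 to 0.58 for LHCB3 in C24 minus Col, -0.015 to 0.53 for LHCB3, -0.0020 to 0.20 for LHCB1.3 and -0.23 to 0.34 for LHCB2.2 in the hybrids minus C24, and -0.020 to 0.12 for LHCB1.3 in ZT15 minus ZT0. For C24xCol minus ColxC24 it gave -0.056 to 0.075 (LHCB1 sum), -0.0054 to 0.17 (LHCB2 sum), -0.25 to 0.14 (LHCB1.1), -0.034 to 0.15 (LHCB1.3), -0.099 to 0.11 (LHCB1.5) and -0.16 to 0.17 (LHCB2.2).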
